A study of Sus scrofa with 6 samples.

Results

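Proteasome subunits and protein chaperones were followed through the reprogramming of pig fibroblasts. The set held 113 genes of the 25322 gene IDs in the deposited table. They were chosen by gene symbol, with earlier results of these data known. The symbols were PSMA to PSMG, HSP, DNAJA to DNAJC, CCT, BAG, PDIA and FKBP names, with TCP1, STIP1, CALR and CANX. RNA sequencing was done on 6 libraries in 3 groups of 2 libraries, all from cells of the Small Xiang Pig. One group, called P10 below, was made of piPSCs (induced pluripotent stem cells of the pig) of passage 10 that were labelled Rex1-. Another was piPSCs at passage 5, labelled Rex1+, called P5. The third was PEF, the progenitor fibroblasts, at passage 5. Rex1 (gene ZFP42) is a transcription factor of naive stem cells. The labels used here name neither the reprogramming factors nor the number of cell lines, and passage and Rex1 state differ together between P10 and P5.

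Proteins are folded by chaperones and destroyed by the proteasome. The 20S core of the proteasome is a barrel of alpha and beta subunits that cuts proteins, and the 19S particle on its end recognises ubiquitin-tagged proteins, unfolds them with ATPases and feeds them in. HSP70 and HSP90 with their J-domain and BAG partners fold proteins in the cytosol, the TCP1/CCT ring folds actin and tubulin, HSPD1 and HSPE1 form the chaperonin of mitochondria, and HSPA5, HSP90B1, calreticulin, calnexin and protein disulfide isomerases fold secreted proteins in the endoplasmic reticulum (ER). Fibroblasts secrete collagen and other matrix proteins and so use the ER route heavily, while human pluripotent cells are known for high CCT and proteasome levels.

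The deposited value is an FPKM, a fragment count divided by gene length and library size, with 1 value per gene and group made by the authors. No spread between libraries can be computed, so every difference below is a description without a test. Differences are of log2(FPKM + 1), and genes are called higher or lower where they differed by at least 1, which is 2-fold. Smaller differences are described as a higher or lower FPKM. Of the 113 genes, 100 reached an FPKM of 1 in at least 1 group and were compared, and 4 of these (CCT6B, DNAJC9, DNAJC27 and HSPB8) were under 1 in some group. The other 13, among them PSMB8, PSMB9 and the testis-type subunit PSMA8, stayed under 1 in every group. Of the 113, 25 lay at a locus shared with other IDs, where the division of reads is uncertain, among them BAG6, CCT2, DNAJC1, DNAJC2, DNAJC9, DNAJC11, DNAJC17, HSPA14, HSPB6 and PSMC1. Another 49 symbols of the same naming patterns, PSMB5, PSMD2 and HSPB1 among them, were not matched to an ID and are not analysed here.

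The whole table was checked for its labels. FPKM summed to 826083 in P10, 628992 in P5 and 821130 in PEF, and mitochondrially encoded genes held 31.1% of it in P10, 19.1% in P5 and 15.7% in PEF. Against PEF, 7 of 8 fibroblast markers compared were lower in each piPSC group, beside 19.6% of all genes in P5 and 19.3% in P10. The other, FBLN1, was higher in both, at 14.6 in P10, 21.4 in P5 and 1.34 in PEF. The summed FPKM of the fibroblast markers was 30.5 in P10, 126 in P5 and 2699 in PEF. LIN28A, an RNA-binding protein of early embryonic cells, was at 204 in P10, 299 in P5 and 0.325 in PEF. It did not pass 2-fold between P10 and P5. Of the 5 pluripotent and epithelial markers compared, 4 were lower in P10 than in P5, beside 8.48% of all genes. DNMT3B, 1 of these 4, was at 24.4 in P10, 159 in P5 and 1.57 in PEF. Summed neural markers were at 1200 in P10, 457 in P5 and 71.6 in PEF. IDs of POU5F1, NANOG, SOX2 and ZFP42 were not matched.

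The 113 genes together took 0.936% of the summed FPKM in P10, 1.60% in P5 and 1.22% in PEF, or 1.36% in P10, 1.98% in P5 and 1.45% in PEF of the sum without mitochondrial genes. Their highest gene was HSP90AB1 in P10 (937) and in P5 (725), against the disulfide isomerase PDIA3 in PEF (1142). Of the 100 compared, 20 were higher and 18 lower in P5 than in PEF, beside 41.0% of all 13998 genes compared that differed either way (21.4% higher, 19.6% lower). In P10 against PEF 9 were higher and 23 lower, beside 38.5% of all genes (19.1% higher, 19.3% lower). In P10 against P5 1 was higher and 6 were lower, beside 16.1% of all genes (7.57% higher, 8.48% lower). The total shares against PEF, 38.0% in P5 and 32.0% in P10, were near the background. P5 and P10 are set against the same PEF values, so the first 2 comparisons share them.

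The direction of these counts moved with the scaling of the columns. Rescaled to the sum without mitochondrial genes, the split was 31 higher and 12 lower in P5 against PEF and 15 and 18 in P10 against PEF. With quantile normalization it was 16 and 20 in P10 against PEF. The split in P10 against P5 was 2 and 4 with quantile normalization and 1 and 1 with trimmed-mean scaling. Over the deposited scaling and 4 others, 16 of the 20 genes higher and 12 of the 18 lower in P5 against PEF stayed past 2-fold in each, as did 7 of 9 and 18 of 23 in P10 against PEF. In P10 against P5 this held for 1 of 1 and 1 of 6.

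**Figure D1:**
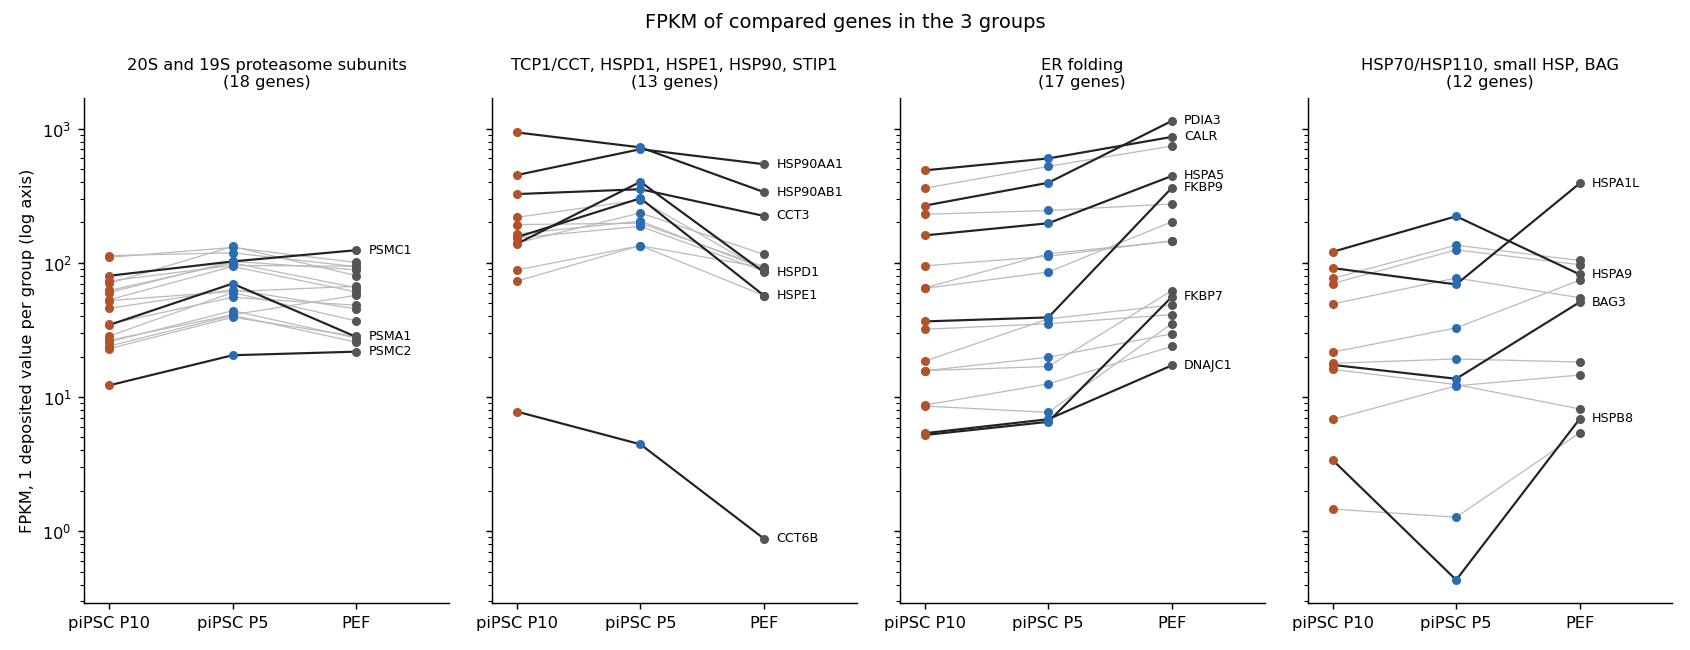
FPKM (log axis) of compared genes in piPSC P10, piPSC P5 and PEF, in 4 panels by role, with 1 deposited value per gene and group as a point and lines joining the values of a gene. The 18 proteasome subunits sit lower in P10 than in P5, most TCP1/CCT, HSPD1 and HSPE1 points peak in P5, and the 17 ER genes are highest in PEF.

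The 20S and 19S subunits mostly differed by less than 2-fold as deposited, and P10 was below P5 throughout. Of 19 genes for subunits of the constitutive particles 18 were compared, and their FPKM lay between 12.2 and 113 in P10, between 20.5 and 132 in P5 and between 21.8 and 124 in PEF. Set against PEF, P5 had 1 gene past 2-fold, which was higher, and a median difference of 0.41. Rescaled without mitochondrial genes, 1 alpha, 1 beta and 5 non-ATPase subunits were higher in P5 than in PEF. P10 also had 1, which was lower, and a median of -0.24. As deposited 2 passed 2-fold in P10 against P5, both lower, and PSMB7 joined them when rescaled without mitochondrial genes. All 18 had a lower FPKM in P10 than in P5, with a median of -0.69. Among all genes compared 53.1% had a lower FPKM in P10 than in P5, with a median of -0.05. The sign held for all 18 under each of the 5 scalings, which gave between 50.1% and 60.8% for all genes. Against PEF the sign was less fixed: P10 was below PEF for 14 of the 18 as deposited, for 7 with quantile normalization and for 9 with the rescaling without mitochondrial genes.

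Among the alpha subunits, which form the outer rings of the core, PSMA1 was at 34.4 in P10, 70.0 in P5 and 28.1 in PEF. It was the constitutive subunit higher in P5 than in PEF, by 1.29, and its difference in P10 against P5 was -1.01, a count that was lost under median, quantile and trimmed-mean scaling. PSMA3 was at 35.0 in P10, 55.3 in P5 and 48.3 in PEF, and PSMA5 at 110 in P10, 130 in P5 and 101 in PEF. The beta ring, which holds the cutting sites, was represented by PSMB7, the trypsin-like site, and PSMB1, a structural subunit. PSMB7 was at 70.2 in P10, 132 in P5 and 80.4 in PEF, and PSMB1 at 60.0 in P10, 103 in P5 and 88.8 in PEF. Both were highest in P5 and lowest in P10, and neither passed 2-fold as deposited.

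The immunoproteasome subunits, which replace constitutive beta subunits after interferon, were near the floor. PSMB9 was at 0.287 in P10, 0.169 in P5 and 0.0521 in PEF, and PSMB8 and the thymus subunit PSMB11 were listed at 0 in all groups. TAP1, a peptide transporter of antigen processing, was also listed at 0 in every group. Exact zeros in such a table can be failed estimates, so no absence is read from them.

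In P5, 46.3% of all genes compared had a lower FPKM than in PEF. The 8 compared non-ATPase subunits of the 19S particle all had a higher one, by differences of 0.34 to 0.69. In P10 they were close to PEF, from -0.36 to 0.27. PSMD14, the enzyme that takes ubiquitin off incoming proteins, was at 28.5 in P10, 60.1 in P5 and 36.9 in PEF, at a locus shared by 3 IDs. PSMD4, a ubiquitin receptor, was at 62.2 in P10, 99.9 in P5 and 65.2 in PEF. PSMD11, a scaffold subunit whose level has been tied to proteasome activity in human embryonic stem cells, was at 113 in P10, 119 in P5 and 93.6 in PEF. In P10 minus P5, PSMD14 differed by -1.05 and passed 2-fold beside PSMA1, while PSMD11 had the smallest difference of the 18, -0.07. With trimmed-mean scaling PSMD14 was just under 2-fold, at -0.99.

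The 5 compared ATPases, part of the motor ring of the same particle, were not higher in P5 than in PEF in the same way. PSMC3 was at 26.4 in P10, 41.0 in P5 and 57.3 in PEF, and PSMC1 at 80.0 in P10, 102 in P5 and 124 in PEF. PSMC6 was at 73.1 in P10, 95.7 in P5 and 94.2 in PEF, and PSMC2 at 12.2 in P10, 20.5 in P5 and 21.8 in PEF. The differences of the ATPases in P5 against PEF ran from -0.47 to 0.02, below the 0.34 to 0.69 of the non-ATPases. Both ranges lay between the lower and upper quartiles of all genes, -0.75 and 0.85. PSMC4, PSMD2, PSMD7 and PSMD8 were not matched, so neither group is complete. All 5 ATPases had a lower FPKM in P10 than in PEF, beside 47.3% of all genes. Their differences ran from -1.09 to -0.35, though only 3 were lower under the scaling that gave the fewest. PSMC3 passed 2-fold, a count that was lost with quantile normalization, with the rescaling without mitochondrial genes and with a pseudocount of 5. With the rescaling without mitochondrial genes the median of the ATPases in P5 against PEF was 0.31 and that of the non-ATPases 1.05.

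PSME1 and PSME2, neighbours on chromosome 7 that encode the interferon-inducible PA28 cap, differed 11.6-fold in level in P10, 8.65-fold in P5 and 15.2-fold in PEF. PSME1 was at 163 in P10, 122 in P5 and 209 in PEF, at a locus shared by 2 IDs, and PSME2 at 14.1 in P10, 14.1 in P5 and 13.8 in PEF. PSME3, the nuclear cap, was at 114 in P10, 138 in P5 and 102 in PEF. PSME4, a large nuclear cap, was lower in P5 (12.0) than in PEF (25.1), and at 13.5 in P10. Its difference in P5, -1.01, was under 2-fold with 3 of the 4 other scalings tried. PSMG3, which helps assemble the alpha ring, was at 36.1 in P10, 30.7 in P5 and 11.6 in PEF, past 2-fold in both piPSC groups. PSMD5, a 19S assembly chaperone, ran the other way, at 5.91 in P10, 10.7 in P5 and 17.8 in PEF, a difference of -1.45 in P10 against PEF.

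Partners of the proteasome outside the set were compared from a list of 13, of which 9 had a row. In P5 against PEF 2 were higher (UBQLN4 and UCHL5) and 0 lower, beside 21.4% of all genes higher and 19.6% lower. In P10 against PEF 2 were higher (UBQLN4 and PAAF1) and 0 lower, beside 19.1% and 19.3%. UBQLN4, which carries ubiquitinated proteins to the proteasome, was at 15.9 in P10, 18.4 in P5 and 6.60 in PEF. Of 3 transcription factors for proteasome genes, NFE2L1 and NFE2L2 were lower in both piPSC groups and NFE2L3 was higher. NFE2L1, which raises proteasome genes when the proteasome is short, was at 40.0 in P10, 45.0 in P5 and 142 in PEF. NFE2L3, its relative, was at 13.5 in P10, 33.5 in P5 and 0.399 in PEF.

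Genes of the cytosolic chaperonin were mostly higher in P5 than in PEF. All 8 compared TCP1/CCT genes had a higher FPKM in P5 than in PEF, where 46.3% of all genes had a lower one. Past 2-fold were 6 of them (from 4 to 7 over the scalings), beside 21.4% of all genes. The median difference was 1.14, beside 0.09 over all genes. In P10 against PEF 2 of 8 were higher past 2-fold (from 2 to 4), beside 19.1% of all genes. The median was 0.68, beside 0.06 over all genes, and reached 1.06 with quantile normalization. CCT6B passed the FPKM filter through the piPSC groups alone. At a mean FPKM of at least 5, which leaves it out, 5 of 7 were higher in P5 and 1 of 7 in P10. CCT5, on an unplaced scaffold, was at 218 in P10, 294 in P5 and 87.2 in PEF, differences from PEF of 1.31 in P10 and 1.74 in P5. CCT3, the highest of the ring, was at 325 in P10, 354 in P5 and 224 in PEF. TCP1 itself, at a locus shared by 4 IDs, was at 88.4 in P10, 134 in P5 and 92.0 in PEF.

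CCT4 was at 73.1 in P10, 135 in P5 and 57.0 in PEF, CCT7 at 164 in P10, 205 in P5 and 90.3 in PEF, CCT8 at 141 in P10, 235 in P5 and 116 in PEF and CCT2 at 153 in P10, 187 in P5 and 86.6 in PEF. Thus 7 of 8 had a lower FPKM in P10 than in P5, beside 53.1% of all genes. The exception was CCT6B, a testis-enriched copy of a ring subunit, at 7.79 in P10, 4.44 in P5 and 0.879 in PEF. CCT2 and CCT8 were under 2-fold in P5 against PEF with trimmed-mean scaling. CCT5 and TCP1 encode subunits of the same ring, yet the ratio of their levels was 2.47 in P10, 2.19 in P5 and 0.947 in PEF. Of the prefoldin genes, which hand unfolded tubulin and actin to the ring, 3 of 6 were compared, and PFDN5 was higher in P5 (9.71) than in PEF (4.22).

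The mitochondrial chaperonin had the highest median difference of the roles in P5 against PEF, 2.31. HSPD1, the chamber, was at 138 in P10, 402 in P5 and 85.1 in PEF. HSPE1, its lid, was at 155 in P10, 303 in P5 and 57.0 in PEF. The gap between their loci on chromosome 15 is 757 bases, from 112547852 to 112548609. The differences in P5 against PEF were 2.22 for HSPD1 and 2.39 for HSPE1. In P10 against PEF they were 0.70 and 1.43, so HSPE1 was higher and HSPD1 was not, except with quantile normalization, where both were.

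HSPD1 had the lowest P10 minus P5 difference in the set, -1.53, and stayed past 2-fold in each scaling. HSPE1 differed by -0.96. The ratio of HSPD1 to HSPE1 was 0.893 in P10, 1.33 in P5 and 1.49 in PEF. HSPA9, the HSP70 of mitochondria, followed the same order, at 121 in P10, 222 in P5 and 81.9 in PEF, at a locus shared by 2 IDs, and was higher in P5 than in PEF by 1.43. TRAP1, the mitochondrial HSP90 outside the set, was at 87.6 in P10, 105 in P5 and 40.7 in PEF. The J-domain partner DNAJA3 was at 25.2 in P10, 33.7 in P5 and 21.6 in PEF, and did not pass 2-fold as deposited.

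The HSP90 pair of the cytosol stood in a different order in P10 than in PEF. HSP90AB1, the constitutive form (chromosome 7, 45113268 to 45123953, a locus shared by 2 IDs), was at 937 in P10, 725 in P5 and 337 in PEF, differences from PEF of 1.47 in P10 and 1.10 in P5. HSP90AA1, the inducible form (chromosome 7, 129758771 to 129761205), was at 451 in P10, 703 in P5 and 543 in PEF. The ratio of HSP90AB1 to HSP90AA1 was 2.08 in P10, 1.03 in P5 and 0.620 in PEF. HSP90AB1 was thus above HSP90AA1 in P10 and below it in PEF, and in P5 the pair was near equal. Scaling a column as a whole cannot change an order within it, but the division of reads at the HSP90AB1 locus is uncertain. With trimmed-mean scaling HSP90AB1 in P5 against PEF was at 0.97, just under 2-fold.

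STIP1, which links HSP70 to HSP90, was at 193 in P10, 197 in P5 and 93.5 in PEF, close to 2-fold in both comparisons and under it with trimmed-mean scaling. FKBP4 and FKBP5, which ride on HSP90 with steroid receptors, were at 69.4 and 41.5 in P10, 130 and 59.8 in P5 and 39.6 and 21.6 in PEF. Both were higher in P5 than in PEF and neither passed 2-fold in P10 as deposited, though both did with quantile normalization and with the rescaling without mitochondrial genes. Among the 9 compared cochaperones outside the set, 1 was higher and 1 lower in P5 against PEF. In P10 against PEF 0 differed, and 2 were lower in P10 than in P5. Over all genes 41.0%, 38.5% and 16.1% differed either way in these comparisons. PPID, a cyclophilin of HSP90, was at 46.1 in P10, 105 in P5 and 26.1 in PEF. CDC37, which brings kinases to HSP90, was at 78.3 in P10, 198 in P5 and 121 in PEF, at a locus shared by 10 IDs.

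In the HSP70 and HSP110 group 7 of 9 genes were compared, with 1 higher and 2 lower in P5 against PEF and 0 and 2 in P10 against PEF. Over all genes 41.0% in P5 and 38.5% in P10 differed from PEF either way. The row named HSPA1L, on an unplaced scaffold, was at 91.4 in P10, 69.0 in P5 and 391 in PEF, differences from PEF of -2.09 in P10 and -2.49 in P5. The locus of this row starts at base 2 of the scaffold, and the row HSP70.2 of that scaffold stayed under 1. Which HSP70 gene the reads of the HSPA1L row came from is uncertain. HSPH1, an HSP110 that exchanges nucleotides on HSP70, was at 21.6 in P10, 32.8 in P5 and 74.3 in PEF. HSPA8, the constitutive HSP70, was at 76.6 in P10, 135 in P5 and 104 in PEF, at a locus shared by 4 IDs, and HSPA4 at 70.1 in P10, 125 in P5 and 96.9 in PEF. The HSPA1L row and HSPH1 were lower in both piPSC groups than in PEF, while HSPA8 and HSPA4 did not pass 2-fold. The HSPH1 count in P5, at -1.16, was lost with quantile normalization and with the rescaling without mitochondrial genes.

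Of the cofactors, BAG3, which pairs with HSP70 and small heat shock proteins in clearing damaged filaments, was at 17.3 in P10, 13.7 in P5 and 51.0 in PEF. BAG1 was at 17.8 in P10, 19.2 in P5 and 18.2 in PEF and BAG6, which guards misplaced membrane proteins, at 49.4 in P10, 77.1 in P5 and 54.9 in PEF. BAG3 was the gene of the 3 that differed from PEF, and the small heat shock protein HSPB8, its partner, was at 3.39 in P10, 0.433 in P5 and 6.88 in PEF. HSPB8 was the gene counted as higher in P10 than in P5, by 1.62, at levels where a pseudocount of 5 ended the count. HSPB6, a small heat shock protein of muscle, was at 1.46 in P10, 1.27 in P5 and 5.42 in PEF. In P5 against PEF both small heat shock proteins were lower, with differences of -2.46 for HSPB8 and -1.50 for HSPB6, and HSPB6 was also lower in P10. A pseudocount of 5 ended both HSPB6 counts. DNAJB4, a J-domain partner of HSP70, was at 10.7 in P10, 8.46 in P5 and 98.8 in PEF, at a locus shared by 4 IDs.

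Some muscle and immediate early transcripts were lower in the piPSCs beside these genes. DES, the desmin gene, was at 4.51 in P10, 6.67 in P5 and 727 in PEF, and 3 of 4 muscle markers compared were lower in each piPSC group. The other, ACTA1, was at 5.57 in P10, 1.26 in P5 and 1.27 in PEF, higher in P10 than in PEF by 1.53. MYOD1 stayed under 1 in every group. Of 6 immediate early genes, 3 were lower in each piPSC group (ATF3, DUSP1 and JUNB) and 3 did not pass 2-fold. Beside this and the muscle count, the all-gene share lower against PEF was 19.6% for P5 and 19.3% for P10. FOS was at 7.41 in P10, 6.27 in P5 and 8.25 in PEF. HSF1, the factor that switches on heat shock genes, was at 22.9 in P10, 30.4 in P5 and 16.2 in PEF, and DNAJB1, a classical heat-induced gene, at 5.14 in P10, 6.08 in P5 and 9.17 in PEF, neither past 2-fold. The part of these transcripts in the HSPA1L, BAG3 and DNAJB4 differences was not tested. In RNA from whole cultures fewer cells of a type and less RNA per cell cannot be told apart.

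Folding genes of the ER were highest in PEF. Of 18 ER genes 17 were compared, and 17 of 17 had a lower FPKM in each piPSC group than in PEF, beside 46.3% of all genes in P5 and 47.3% in P10. In P5 against PEF 8 were lower past 2-fold (from 5 to 9 over the scalings) and 0 higher, with a median of -0.88, against 0.09 over all genes. In P10 against PEF 12 were lower (from 10 to 12) and 0 higher, with a median of -1.36, against 0.06 over all genes. Summed over the 18, FPKM was 1877 in P10, 2458 in P5 and 4639 in PEF. The chaperones outside the ER summed to 4504 in P10, 5830 in P5 and 3835 in PEF. The median FPKM of the 55 compared among them ran otherwise, at 26.1 in P10, 32.8 in P5 and 39.6 in PEF. Of these 55, 16 were higher and 8 lower in P5 against PEF (43.6%, beside 41.0% of all genes). In P10 against PEF 7 were higher and 8 lower (27.3%, beside 38.5%). With quantile normalization 16 of the 17 ER genes in P10 and 13 in P5 had a lower FPKM than in PEF. Rescaled without mitochondrial genes it was 16 in P10 and 12 in P5.

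**Figure D2:**
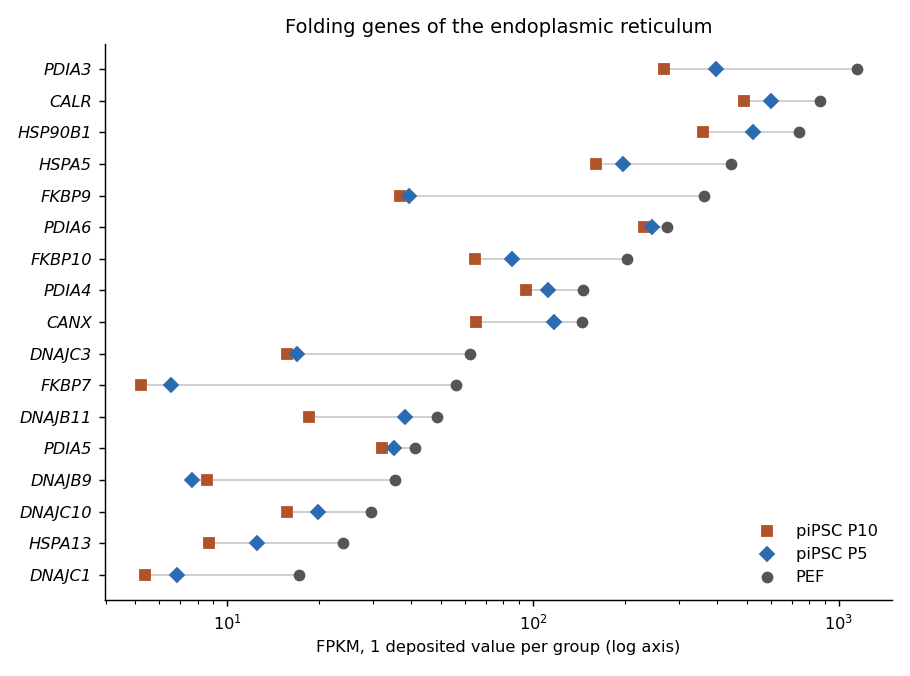
FPKM (log axis) of 17 ER folding genes, 1 row per gene sorted by the PEF value, with squares for piPSC P10, diamonds for piPSC P5 and circles for PEF. The PEF circle is the rightmost symbol in all 17 rows, and FKBP7 and FKBP9 have the widest gaps.

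PDIA3, the disulfide isomerase that works with calnexin and calreticulin on glycoproteins (chromosome 1, 142615685 to 142643747, a locus shared by 2 IDs), was at 267 in P10, 395 in P5 and 1142 in PEF. It differed from PEF by -2.09 in P10 and -1.53 in P5. The other isomerases differed less: PDIA6 was at 230 in P10, 245 in P5 and 275 in PEF and PDIA5 at 32.0 in P10, 35.2 in P5 and 41.1 in PEF. PDIA3 was 1.16 times PDIA6 in P10, 1.61 times in P5 and 4.16 times in PEF. It was the member of the family that passed 2-fold. PDIA2, an isomerase of pancreas, stayed under 1.

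HSPA5 (BiP), the HSP70 of the ER (chromosome 1, 299754094 to 299758545, a locus shared by 2 IDs), was at 160 in P10, 197 in P5 and 444 in PEF. HSP90B1, the ER HSP90, was at 360 in P10, 523 in P5 and 742 in PEF, at a locus shared by 3 IDs. Calreticulin, CALR, was at 489 in P10, 600 in P5 and 868 in PEF, and its membrane partner calnexin, CANX, at 65.0 in P10, 117 in P5 and 145 in PEF. HSPA5 passed 2-fold in both piPSC groups, HSP90B1 and CANX in P10 only, and CALR in neither. The HSP90B1 and CANX counts in P10, at -1.04 and -1.14, were lost with quantile normalization and with the rescaling without mitochondrial genes, and that of HSP90B1 with median scaling too. In P5, HSPA5 was at -1.17 and under 2-fold in both of those.

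The J-domain partners of HSPA5 were lower as well. DNAJB9, which turns down the stress sensor IRE1, was at 8.56 in P10, 7.68 in P5 and 35.3 in PEF, and DNAJC3, an inhibitor of the kinase PERK, at 15.7 in P10, 16.9 in P5 and 62.1 in PEF. DNAJB11, a BiP cofactor, was at 18.5 in P10, 38.2 in P5 and 48.6 in PEF, and DNAJC10, a reductase with a J-domain, at 15.7 in P10, 19.8 in P5 and 29.6 in PEF. DNAJB9, DNAJC3 and DNAJC1 were lower in both piPSC groups, DNAJB11 in P10 only, and DNAJC10 in neither. The DNAJC1 count in P5, at -1.22, was lost with the rescaling without mitochondrial genes and with a pseudocount of 5. DNAJB11 was also lower in P10 than in P5, with a difference of -1.01, a count lost with median, quantile and trimmed-mean scaling. HSPA13, an ER HSP70, was at 8.70 in P10, 12.5 in P5 and 23.9 in PEF.

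Of the FKBP prolyl isomerases of the ER, FKBP9 and FKBP7 had the largest differences from PEF among the 17 ER genes. FKBP9 was at 36.6 in P10, 39.2 in P5 and 363 in PEF, FKBP7 at 5.21 in P10, 6.53 in P5 and 55.9 in PEF and FKBP10 at 64.5 in P10, 85.4 in P5 and 202 in PEF. FKBP9 and FKBP7 differed from PEF by -3.27 and -3.20 in P10 and by -3.18 and -2.92 in P5. FKBP10, which acts on procollagen and is mutated in a brittle bone disease, differed by -1.63 in P10 and -1.23 in P5, and the P5 count was lost with quantile normalization and with the rescaling without mitochondrial genes. Of the FKBPs outside the ER, FKBP8 of the mitochondrial surface was at 92.4 in P10, 126 in P5 and 101 in PEF, and FKBP3 of the nucleus at 78.3 in P10, 130 in P5 and 98.8 in PEF, and neither passed 2-fold.

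Collagen folding genes outside the set moved with the ER FKBPs. Of 10 compared, 8 were lower in P5 than in PEF and 0 higher, and in P10 8 were lower and 1 higher. Over all genes 19.6% were lower in P5 and 19.3% in P10. P4HA1, a prolyl hydroxylase of collagen, was at 25.4 in P10, 18.6 in P5 and 249 in PEF. PLOD2, a lysyl hydroxylase, was at 5.60 in P10, 14.8 in P5 and 117 in PEF. Of 11 ER stress and ER folding genes compared, 7 were lower and 1 higher in P5, and 6 lower and 0 higher in P10. XBP1, a transcription factor of the unfolded protein response, was at 15.3 in P10, 10.4 in P5 and 59.1 in PEF, and the sensor ATF6 at 16.9 in P10, 16.0 in P5 and 54.4 in PEF. The higher gene was ERP29, at 69.3 in P10, 85.4 in P5 and 41.7 in PEF. Of the collagen chains among the fibroblast markers, COL1A2 was at 4.05 in P10, 5.83 in P5 and 1266 in PEF, and COL3A1 at 3.11 in P10, 87.9 in P5 and 1016 in PEF. Their part in the ER differences was not tested.

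J-domain proteins outside the ER mostly did not pass 2-fold against PEF. Of 28 genes 25 were compared. In P5 against PEF 3 were higher, 3 lower and 19 under 2-fold, beside 41.0% of all genes that differed either way. In P10 against PEF 2 were higher, 4 lower and 19 under 2-fold, beside 38.5% of all genes. The medians of the 25 were -0.03 in P5 and -0.05 in P10. DNAJC6, an auxilin that uncoats clathrin vesicles, was at 2.53 in P10, 6.22 in P5 and 1.08 in PEF. DNAJC9, a histone chaperone, was at 2.27 in P10, 4.34 in P5 and 0.968 in PEF, and DNAJC11, a protein of the mitochondrial membrane folds, at 21.3 in P10, 29.6 in P5 and 11.6 in PEF. These 3 were higher in P5, though DNAJC6 and DNAJC9 are low enough that a pseudocount of 5 ended both counts. DNAJC9 passed the FPKM filter through the piPSC groups alone. A mean FPKM of at least 5 leaves out both DNAJC6 and DNAJC9. DNAJC25, a membrane J-domain protein, was lower, at 12.2 in P10, 11.1 in P5 and 43.1 in PEF, beside DNAJB4 and DNAJC28. DNAJC13 was lower than PEF in P10 only, by -1.16. That count was lost with the rescaling without mitochondrial genes and with a pseudocount of 5. The DNAJC28 counts, at -1.03 in P10 and -1.07 in P5, were both lost with the rescaling without mitochondrial genes and with a pseudocount of 5, and the P10 count with median scaling too.

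DNAJA1, the main partner of cytosolic HSP70, was at 214 in P10, 243 in P5 and 176 in PEF. DNAJC7, which has binding sites for HSP70 and HSP90, was at 59.0 in P10, 102 in P5 and 69.9 in PEF, and DNAJC2, which works at the ribosome, at 41.5 in P10, 41.7 in P5 and 24.9 in PEF. None of these 3 passed 2-fold in any comparison as deposited. DNAJC17, linked to splicing, was higher than PEF in P10 and not in P5, at 26.1 in P10, 23.5 in P5 and 12.3 in PEF, and DNAJB5, a cofactor of HSP70, was as well. The DNAJC17 count was lost with trimmed-mean scaling and both were with a pseudocount of 5.

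Some genes carried a matching symbol without being a subunit or a chaperone. PSMC3IP, a partner of the recombinase DMC1 in meiosis, was at 43.4 in P10, 54.2 in P5 and 5.38 in PEF, the highest difference of the set in both comparisons with PEF (2.80 in P10 and 3.11 in P5). HSPG2, the basement membrane proteoglycan perlecan, was at 15.5 in P10, 13.3 in P5 and 67.0 in PEF. HSPBP1, which exchanges nucleotides on HSP70, was at 8.96 in P10, 19.6 in P5 and 6.77 in PEF and HSPBAP1 at 5.54 in P10, 3.83 in P5 and 4.59 in PEF. Without these 4 genes, 18 were higher and 17 lower in P5 against PEF, 8 and 22 in P10 against PEF, and 1 and 5 in P10 against P5.

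**Figure D3:**
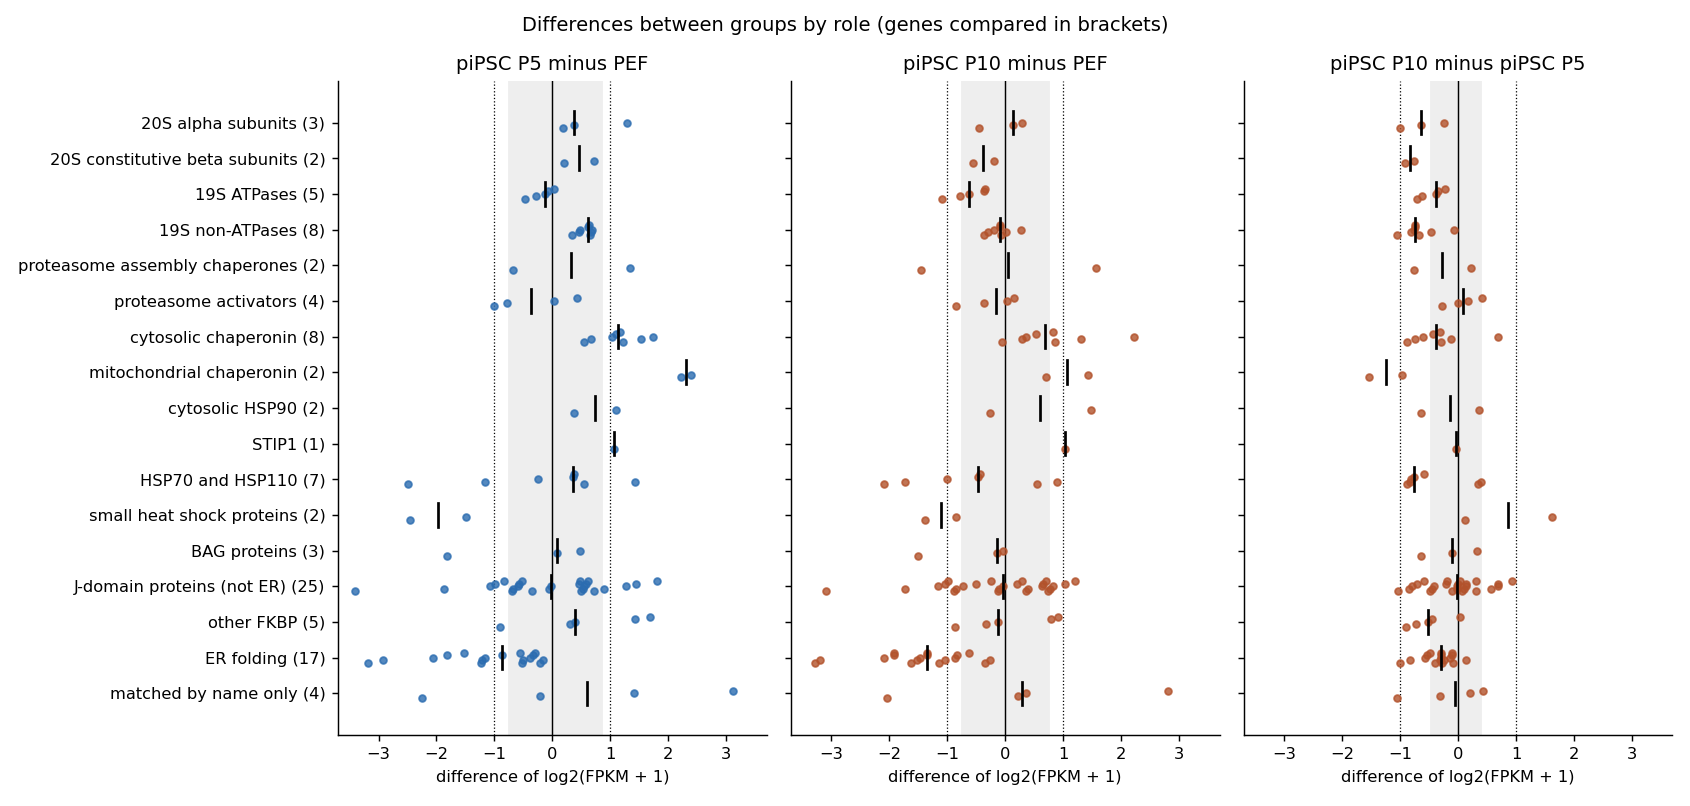
Differences of log2(FPKM + 1) for 100 compared genes (points) by role, for piPSC P5 minus PEF, piPSC P10 minus PEF and piPSC P10 minus piPSC P5, with black bars at the median of a role, dotted lines at a 2-fold difference and a grey band from the lower to the upper quartile of all 13998 genes. ER folding lies left of 0 in both comparisons with PEF, and the TCP1/CCT and mitochondrial chaperonin points lie right of 0 in P5 minus PEF.

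Later Rex1- against earlier Rex1+ piPSCs gave mostly small differences, and more genes had a lower than a higher FPKM in P10. Of the 100 compared, 74 had a lower FPKM in P10 than in P5, beside 53.1% of all genes, and the median difference was -0.32, beside -0.05. The 6 lower past 2-fold were DNAJB11, DNAJC6, HSPBP1, HSPD1, PSMA1 and PSMD14, and with a pseudocount of 5 HSPD1 was the one left. Over the scalings the share lower in P10 ran from 70.0% to 82.0% for the 100 genes and from 50.1% to 60.8% for all genes. A P10 value was the lowest of the 3 groups for 47 of the 100, beside 29.2% of all genes, and the highest for 10, beside 28.0%. The count of lowest values was 31 with quantile normalization, beside 28.2% of all genes.

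**Figure D4:**
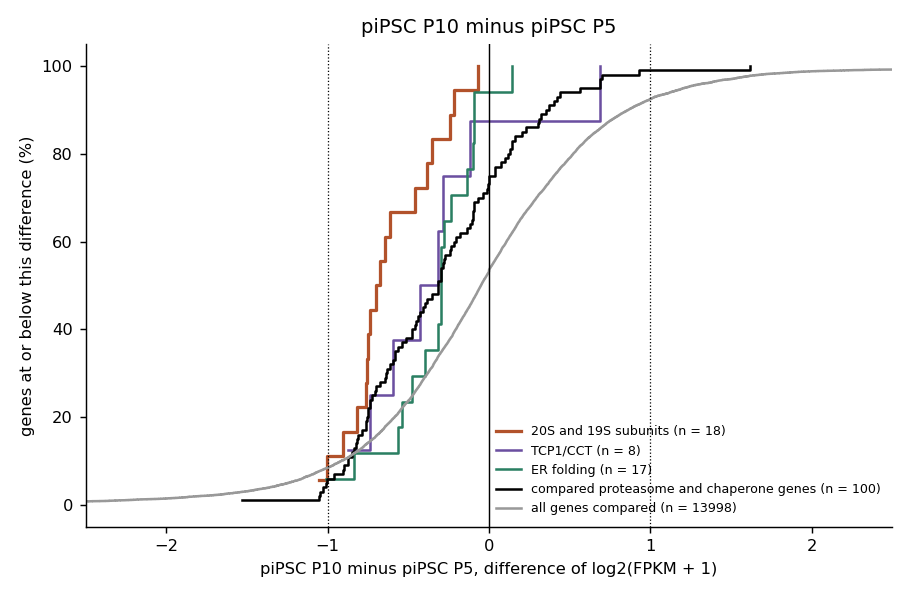
Cumulative share of genes (%) at or below each piPSC P10 minus piPSC P5 difference of log2(FPKM + 1), for 18 proteasome subunits of the 20S and 19S particles, 8 TCP1/CCT genes, 17 ER folding genes, the 100 compared genes of the set and all 13998 genes. The subunit curve reaches 100% left of 0 and the curve of all genes reaches 53.1% at 0.

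The 10 genes highest in P10 included HSP90AB1, PSMG3, CCT6B and HSPA14, a ribosome-associated HSP70. HSPA14 was at 16.1 in P10, 12.4 in P5 and 8.15 in PEF, which is under 2-fold against PEF as deposited. In P10 it passed 2-fold with quantile normalization and with the rescaling without mitochondrial genes. P5 was the highest group for 47 of the 100, beside 33.7% of all genes. PEF was the highest for 43, beside 38.3%, and 17 of these were the ER genes. Rescaled without mitochondrial genes, P5 was the highest for 59, beside 44.3% of all genes, and PEF for 31, beside 28.7%. Of the 17 ER genes, 12 were then highest in PEF. Markers also separated P10 from P5. Of 5 pluripotent and epithelial markers compared, 4 were lower in P10, beside 8.48% of all genes. Of 8 neural markers, 7 were higher in P10, beside 7.57% of all genes. The part of these markers in the lower proteasome and chaperonin values of P10 was not tested.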

How the data were processed

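The authors deposited FPKM, as the header of the table names the unit, in 1 column per group of 2 libraries. Bowtie2 2.0.6, TopHat2 2.0.9 and the susScr3 build come from the submitters' processing notes. Neither labels nor headers name the FPKM program, the annotation, the way of combining libraries or the base from which starts are counted. Symbols came from a table of gene IDs and names, which matched 11804 of 25322 IDs (46.6%). Loci are printed as deposited (susScr3). A locus shared by several IDs leaves the division of reads between them uncertain, and 25 of the 113 genes lay at one.

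Differences are of log2(FPKM + 1), taken with Python 3.11.15 and pandas 2.3.3 for the 13998 IDs that reached 1 FPKM in some group. The calculation was tested on simulated data. With 1 value per group there is no p-value, and limma, planned for values per library, was not run. Depth is unknown. Among genes under 0.15 FPKM the commonest ratio between columns put P10 at 1.42 times the depth of PEF (21 of 678 genes) and P5 at 0.728 times (16 of 589 genes), a weak hint. Roles, lists and members were chosen with earlier results of these data known. Named genes are the extremes of each role and a list by role. Others among the 113 were named after their values were seen. Alternatives covered pseudocounts, filters, 4 scalings, a stricter fold and shared loci, and 2 sets of left-out genes were added after seeing the data. One result on a gene outside the set is not reported here.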

Additional observations from a re-analysis of the deposited data

How the results depend on the processing

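No paired analysis was possible because the table has 1 column per group and no library values, and no library could be left out. A log2 difference of at least 2 left 3 higher and 7 lower in P5 against PEF, 2 and 6 in P10 against PEF, and 0 and 0 in P10 against P5. In P10 against P5 a pseudocount of 5 gave 0 higher and 1 lower, a mean FPKM of at least 5 gave 0 higher, quantile normalization 2 higher, trimmed-mean scaling 1 lower and rescaling without mitochondrial genes 12 lower. Against PEF, quantile normalization gave 16 higher in P10, and rescaling without mitochondrial genes 31 higher in P5 and 15 in P10. That rescaling moved the median of all genes by 0.36, 0.22 and -0.13 in P5 against PEF, P10 against PEF and P10 against P5. The median of the compared members in P5 against PEF was 0.20 as deposited, 0.39 with quantile normalization, 0.061 with trimmed-mean scaling, 0.64 without mitochondrial genes in the sum, and 0.049 without IDs at a shared locus or overlapping another ID. In P10 against PEF it was -0.25 as deposited, 0.062 with quantile normalization, 0.032 without mitochondrial genes in the sum and -0.13 with no filter. In P10 against P5 it was -0.32 as deposited and -0.47 without mitochondrial genes in the sum. Relative to the median of all genes these became 0.19, -0.25 and -0.29 under that rescaling, against 0.11, -0.31 and -0.27 as deposited. The other alternatives kept counts within 1.5 times and medians within 0.1, and no gene counted as different changed sign. The cause of these moves was not tested. Depth is unknown, so low values such as those of HSPB8 and CCT6B have no interval.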
